A study of Danio rerio with 28 samples.

Results

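The genes described here encode the subunits, activators and assembly factors of the proteasome in the regenerating zebrafish liver. All gene rows whose symbol began with psma, psmb, psmc, psmd, psme, psmf or psmg followed by a digit were taken, which gave 57 of 27163 gene rows. Of these, psmc3ip and psme3ip1 carry the name of a partner and are not proteasome genes, so they were counted apart and 55 members remained. By role, 9 members were alpha subunits of the 20S core, 7 were its constitutive beta subunits, 7 were ATPases of the regulatory base and 13 were other subunits of the 19S cap, and these 36 are called constitutive below. A further 5 were beta subunits of the immune type (psmb8a, psmb9a, psmb10, psmb12 and psmb13a), 2 were the immune activator genes psme1 and psme2, 4 were other activators or an inhibitor, 6 were assembly factors and 2 were thymus-type beta genes.

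The proteasome degrades proteins that carry ubiquitin chains. Its 20S core is a barrel of alpha rings around beta rings, and psmb5, psmb6 and psmb7 encode the beta subunits that cut peptide bonds. The 19S cap, built from psmc ATPases and psmd subunits, recognises, unfolds and threads in the substrate. In mammals interferon signalling replaces the catalytic subunits by immune counterparts (psmb8 for psmb5, psmb9 for psmb6, psmb10 for psmb7), which changes the peptides offered on class I molecules, and psme1 and psme2 encode the activator that goes with them. Fish carry additional immune-type genes, of which psmb12 and psmb13a are annotated in RefSeq next to psmb8a and psmb9a on the same chromosome.

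All 22 libraries used here came from adult fish that carried Tg(fabp10a:CFP-NTR), the reporter Tg(-3.5ubb:LOXP-EGFP-LOXP-mCherry) and, as driver, Tg(Tp1:CreERT2). Tp1 responds to Notch, so Cre activated by 4-hydroxytamoxifen in early larvae turned biliary epithelial cells (BECs) and their descendants from GFP to mCherry, and the fabp10a promoter placed nitroreductase in hepatocytes, which metronidazole then killed. mCherry+ cells were sorted from mock-treated fish and after ablation, on days 0 to 3 and on day 7 (written as dpa, days post ablation), with 3 libraries each, and from uninjured fish (3 libraries, called untreated below), with 1 library of GFP+ cells from uninjured fish. The number of fish behind a library was not given in the sources used here, so p-values measure the spread between libraries, which may be partly technical. Every state before and after injury therefore shares the same 3 transgenes, and the labelled cells were those with Notch activity in larvae.

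Between 671 and 1409 barcodes per library were called as cells, 19963 in all, because their UMI total (unique transcript tags) was above the library mean. Total UMIs per library were lowest in mock (926798 to 1033711) and highest at 3 dpa (5789678 to 6893275). Cells were grouped into 37 clusters without using any proteasome gene, and clusters were called BEC-like, hepatocyte-like (HC), macrophage-like (Mac), lymphocyte-like (Lym) or neutrophil-like (Neu) from fixed markers. The study's own cell names were not used, and these may not match them. Immune cells were thus present in the mCherry+ gate at every stage, and 3.273% to 27.67% of a stage's cells belonged to none of these types. A state is written as the study writes it, for example 2dpa.BEC. Levels are scaled CPM (a gene's UMIs as counts relative to the total UMIs of its sum, after scaling between sums), and each mean is given with its SD over libraries (n = 3 unless stated).

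Of the marker lists of these 5 types, the one of the given name had the highest sum in most states, with exceptions that touch results below. Hepatocyte markers stood above BEC markers in 3dpa.BEC (27980 and 12120), above macrophage markers in 7dpa.Mac (4330 and 3671) and above lymphocyte markers in 7dpa.Lym (25060 and 824.6), and they also led the BEC-like cells of the GFP+ library. BEC markers stood above lymphocyte markers in 1dpa.Lym (2402 and 394.1) and in 2dpa.Lym (1570 and 1427), so the lymphocyte name is weak at these times. The Lym clusters were also led by the heat shock genes hsp90aa1.2, hsp70l and hsp70.2. In 2dpa.HC, with 47 cells, the summed hepatocyte markers (7151) were level with the BEC markers (7193), and 0dpa.HC, with 45 cells, had hepatocyte markers of only 2565 against 66420 in 3dpa.HC. Different clusters made up the BEC-like class at different times. Cluster 8 held 70.06% of untreated.BEC, clusters 5 and 18 held 43.83% and 31.28% of mock.BEC, and cluster 1 held 74.07% of 2dpa.BEC. Likewise cluster 4 held 91.67% of mock.Mac and cluster 3 held 72.02% of 1dpa.Mac, and the hepatocyte-like cells moved from cluster 2 (72.95% of 3dpa.HC) to clusters led by vitellogenin genes at 7 dpa.

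Against mock, most proteasome genes were higher in BEC-like cells by 2 dpa, with the main step between 0 and 1 dpa, and they fell again from 2 to 3 dpa. Against untreated.BEC 27 members were already higher at 0 dpa and 3 lower, so the count at 0 dpa, and the timing read from it, depends on the baseline. The share of all genes called against untreated.BEC is not given here, so the 27 cannot be called particular to the members. The 36 constitutive genes summed to 1948, 2155 and 2216 scaled CPM in the mock.BEC libraries and to 7097, 6812 and 7098 in 2dpa.BEC. The groups did not overlap, and the means were 2106 ± 140.9 and 7002 ± 164.9. The same sum was 2307 ± 43.67 in 0dpa.BEC, 5773 ± 76.62 in 1dpa.BEC and 4482 ± 64.84 in 3dpa.BEC. At 7 dpa it was 951 ± 79.59, near the 854.8 ± 106.9 of untreated.BEC, although only 122 BEC-like cells were left. That nearness depended on the scaling. Before scaling the 7dpa.BEC libraries were at 626.8, 585.7 and 501.5 CPM, on 37, 30 and 26 UMIs, and those of untreated.BEC at 739.5 to 955.1. Barcodes not called as cells stood at 561 to 593 CPM at 7 dpa, and the part of free RNA was not tested. Hepatocyte markers in the BEC-like sums were 17310 in 7dpa.BEC, level with its BEC markers (17630), and 1436 in untreated.BEC and 1648 in mock.BEC, and their part was not tested.

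**Figure D1:**
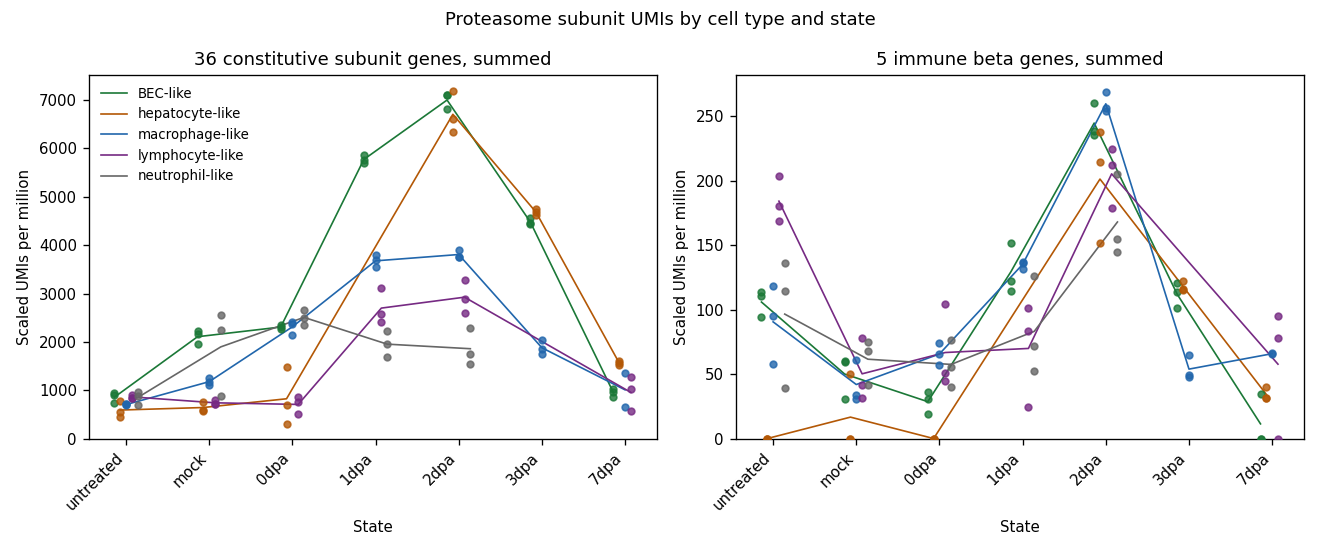
Summed scaled CPM (linear axis from 0) of the 36 constitutive genes (left) and the 5 immune beta genes (right) against state, with 1 point per library and lines joining the means of the states that had enough cells. Constitutive sums peak at 2 dpa in BEC-like cells (7002) and stay lower in macrophage-like cells (3807), while the immune sums of these types are close at 2 dpa (244.9 and 259.9).

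Between 2 dpa and mock, 47 of the 51 members tested rose in BEC-like cells and none fell (edgeR's quasi-likelihood test, adjusted p under 0.05 after Benjamini-Hochberg over 8927 genes), against 18.6% of all tested genes that were called higher. The median log2 change of the members was 1.754, and that of all genes tested was -0.214. All 9 alpha genes, all 7 constitutive beta genes, 6 of 7 ATPase genes and all 13 other cap genes were called. Among the catalytic genes psmb7 rose by 2.55 on the log2 scale (SE 0.298, adjusted p = 1.9e-15), psmb6 by 2.23 (SE 0.276) and psmb5 by 1.74 (SE 0.369). psmb7 stood at 45.83, 50.91 and 46.87 in the mock.BEC libraries and at 284.9, 283.4 and 273.9 in 2dpa.BEC, so that its groups were far apart. The 4 members that were not called were psmc1b, psmg2, psme4b (log2 change -1.17, edgeR quasi-likelihood adjusted p = 0.06) and the inhibitor gene psmf1 (-0.66). The other 4 members were too low to test. psmb11a had no UMI in any sum, psmb11b had 2, psme4a had 75 and psmd5 had 255.

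**Figure D2:**
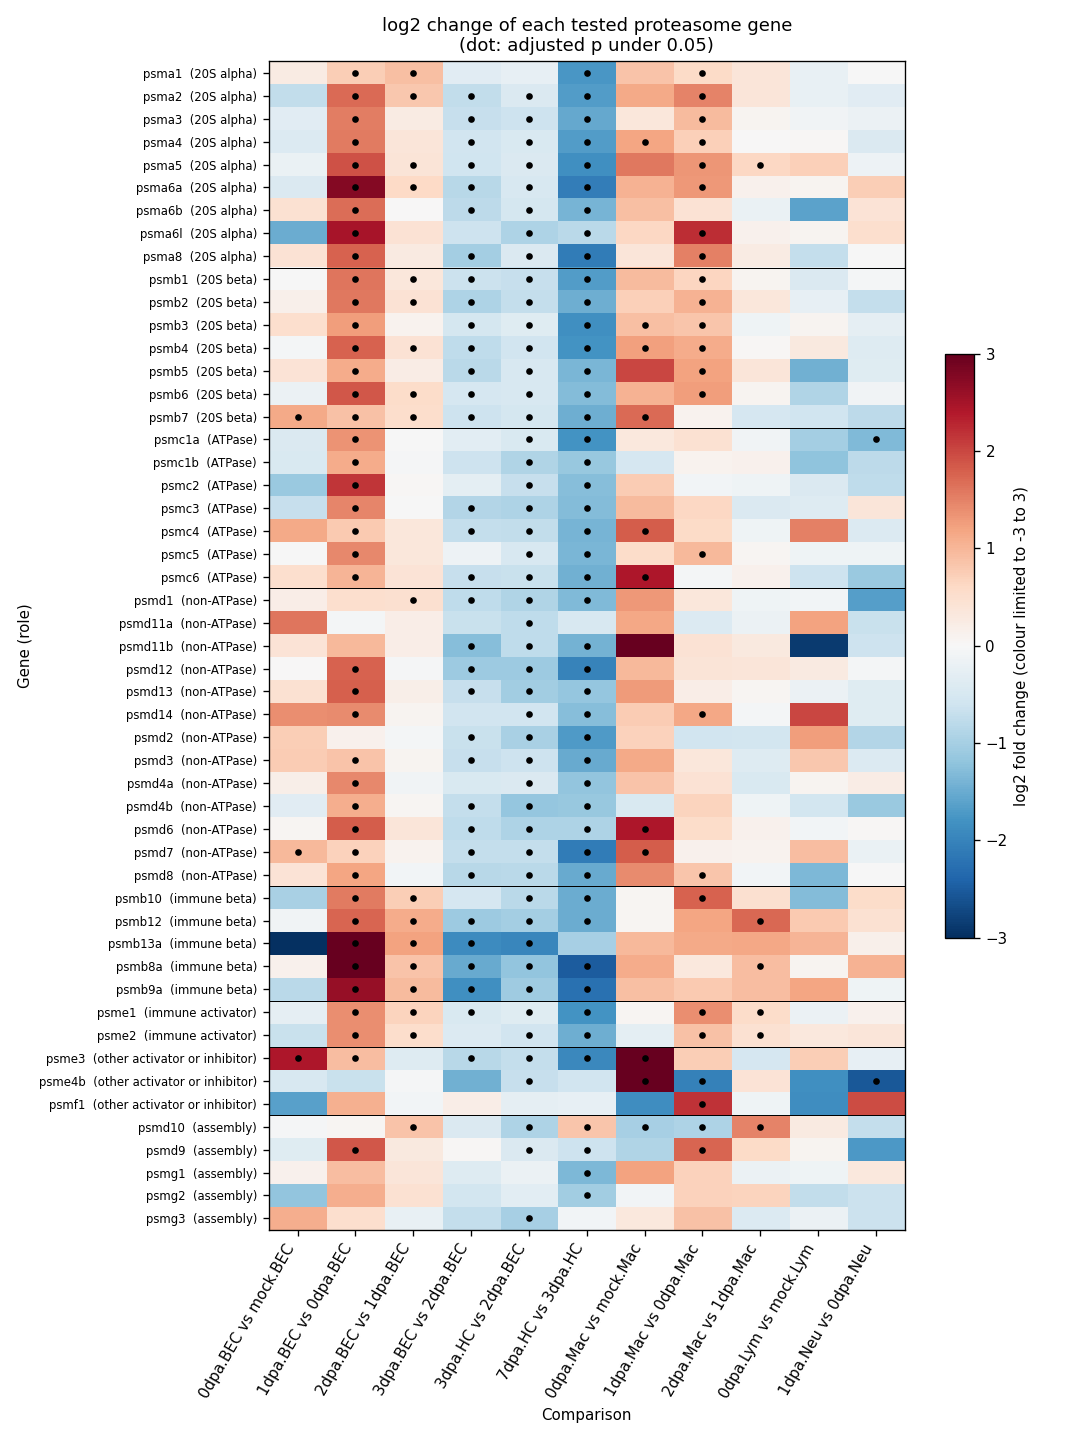
Fitted log2 fold change (colour, limited to -3 to 3) of the 51 tested members, ordered by role, in 11 comparisons, with a dot where the adjusted p was under 0.05. The column for 1 dpa against 0 dpa in BEC-like cells carries 41 dots, all for higher levels, and that for 7 dpa against 3 dpa in hepatocyte-like cells carries 46, of which 1 (psmd10) is for a higher level.

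At 0 dpa, the end of ablation, 3 of the 51 members were higher in BEC-like cells than in mock and none was lower, where 3.88% of all genes were called higher and 8.97% lower. These were psme3, which encodes a nuclear proteasome activator, psmb7 and psmd7. The psme3 level was 15.28, 8.486 and 6.696 in mock.BEC and 52.17, 52.22 and 61.46 in 0dpa.BEC, with no overlap (log2 change 2.43, SE 0.686, edgeR quasi-likelihood adjusted p = 0.0061), but the mock level rests on 4 UMIs. For psme3 the adjusted p by the same test was 0.058 without mock replicate 3. psmb7 and psmd7 lost their calls in 5 and 3 of the 6 fits that left out 1 library, among them those without mock replicate 1 (edgeR adjusted p = 0.095 and 0.11) and without 0 dpa replicate 2 (0.12 and 0.058). Without mock replicate 2 psmb7 was at 0.08 and psmd7 at 0.11, and psmb7 was at 0.12 without mock replicate 3 and at 0.087 without 0 dpa replicate 3. Of the immune beta genes psmb10 had the most UMIs at 0 dpa, 11 over the 3 libraries.

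Between 0 and 1 dpa 41 members rose in BEC-like cells and none fell, against 14.5% of all genes called higher and 9.16% lower. Macrophage markers in the BEC-like sums were 135.1 at 0 dpa, 519.4 at 1 dpa and 83.27 at 2 dpa, and their part was not tested. The median log2 change was 1.424 (0.056 over all genes). All 9 alpha genes, all 7 constitutive beta genes and all 7 ATPase genes were called, as were 9 of the 13 other cap genes. psma6a, an alpha gene with the near copies psma6b and psma6l between which reads may be split, was at 12.04, 9.495 and 11.52 at 0 dpa and at 75.64, 69.14 and 84.13 at 1 dpa. Its libraries did not overlap and its log2 change was 2.75 (SE 0.448, edgeR quasi-likelihood adjusted p = 4.6e-08). Of the 5 assembly factors tested 1 (psmd9) was called.

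From 1 to 2 dpa fewer members changed. Of the 51 members, 18 rose and none fell (15.3% of all genes were called higher and 9.95% lower). They comprised 4 of 9 alpha genes, 5 of 7 constitutive beta genes, all 5 immune beta genes, psme1, psme2, psmd1 and psmd10, and none of the 7 ATPase genes. psma1 went from 130.3, 127.8 and 132.7 to 263.2, 218.8 and 248.6, with no overlap (log2 change 0.90, SE 0.140, edgeR quasi-likelihood adjusted p = 5.1e-09). The median log2 change was 0.233 over the constitutive genes, 0.046 over the ATPase genes and 0.946 over the immune beta genes, beside 0.089 over all genes. With edgeR's TMM factors over all genes the count of members called was 28, beside 1818 of the 8927 genes called higher. With background counts subtracted the count of members was 11.

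At 3 dpa the BEC-like cells that remained had lower levels than at 2 dpa. Here 33 members fell and none rose, against 7.35% of all genes called lower. All 7 constitutive beta genes, 7 of 9 alpha genes, 10 of 13 other cap genes and 3 of 7 ATPase genes were among them. psmd12, a cap lid subunit gene, stood at 150.9, 121.7 and 128.7 at 2 dpa and at 70.22, 66.03 and 54.63 at 3 dpa. Counts fell to 19 without 3 dpa replicate 2, to 21 without 3 dpa replicate 3 and to 12 with background counts subtracted. They depended on the scaling too, with 49 members lower with TMM factors over all genes, library size alone or DESeq2. The median of all genes then moved from -0.031 to -0.596, -0.398 and -0.408. Of all genes 2398 of 8927, 1746 of 8927 and 1928 of 8580 were called lower in these settings. Hepatocyte markers in these same BEC-like sums stood at 27980 at 3 dpa and 1728 at 2 dpa, and their part in the fall was not tested.

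Hepatocyte-like cells at 3 dpa, which carried the mCherry label of biliary origin, still had high levels. Their constitutive sum was 4683, 4743 and 4619 (4682 ± 62.03), below that of 2dpa.BEC and just above that of 3dpa.BEC, whose libraries were at 4451, 4440 and 4557. Against 2dpa.BEC 47 members were lower and none was higher, where 32.0% of all genes were called lower and the median of all genes was -0.32 (members -0.682). Against 3dpa.BEC only psma8, an alpha gene, was called (178.3 on average in 3dpa.HC, log2 change 0.59, SE 0.182, edgeR quasi-likelihood adjusted p = 0.008), beside 10.5% of all genes called higher. That comparison depended on the scaling: 38 members were called higher with TMM factors over all genes and 32 with DESeq2, settings that put the median gene at 0.624 and 0.347 rather than -0.103. These settings called 2936 of 8927 and 2256 of 8753 genes higher, beside 933 of 8927 with the scaling used above.

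By 7 dpa proteasome genes were low in hepatocyte-like cells. From 3 to 7 dpa 45 members fell and 1 rose, where 24.1% of all genes were called lower and 24.0% higher. The median log2 change was -1.435, against 0.0 over all genes, and the constitutive sum was 1519, 1607 and 1561 at 7 dpa. It was 1263 in hepatocyte-like cells of the single GFP+ library from uninjured fish, which has no replicate. Before scaling these sums lay further apart, at 613.3, 631.6 and 654.4 CPM at 7 dpa and 323.1 in the GFP+ library. Barcodes not called as cells stood at 561 to 593 CPM at 7 dpa and 318.6 in the GFP+ library, and the part of free RNA was not tested. psmd7 went from 182.8, 205.9 and 184.1 to 42.04, 60.06 and 32.67, without overlap (log2 change -2.10, SE 0.174, edgeR quasi-likelihood adjusted p = 5.7e-30). psmb13a, psmd11a, psme4b, psmf1 and psmg3 were not called. The count was 43 to 45 when any 1 library was left out.

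The 7dpa.BEC sums held 39 to 44 cells each, and 12 tested members had no UMI in one of the groups when compared with mock.BEC. Only the ATPase gene psmc1a was called (lower, where 1.17% of all genes were called lower and 4.51% higher), at 0, 68.38 and 33.36 against 84.01, 118.8 and 261.1 in mock.BEC. The ratio of its pooled UMIs, 3 against 64, was 0.1909 with a 95% counting interval of 0.03835 to 0.5835, which covers counting error only. This psmc1a call was lost without mock replicate 3, without 7 dpa replicate 1 and without 7 dpa replicate 31 as labelled (edgeR quasi-likelihood adjusted p = 0.34, 0.43 and 0.11). The constitutive sum was nonetheless 960, 1026 and 867.3 in 7dpa.BEC, below every mock.BEC library (1948 to 2216). The median log2 change of the members was -1.531, beside -0.294 over all genes. This median includes the fitted folds of the 12 members without a UMI in one of the groups, so its size is uncertain. These 7dpa.BEC sums held 37, 30 and 26 UMIs. Before scaling they overlapped the barcodes not called as cells (501.5 to 626.8 against 561 to 593 CPM). At an unadjusted p under 0.05 12 members were lower and 0 higher, but the share of all genes at that unadjusted p is not given here. With TMM factors over all genes 13 members were called lower. In that setting 667 of the 8927 genes were called lower, beside 104 with the scaling used above, and the median of all genes was -1.204.

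The immune beta genes rose from a floor set by very few UMIs. psmb8a, the counterpart of psmb5, had 1 UMI in the mock.BEC libraries together and 314 in 2dpa.BEC, where its levels were 51.58, 46.33 and 45.45. The pooled ratio was 18.97 with a 95% counting interval of 3.38 to 751.7. psmb9a, the counterpart of psmb6, had 3 UMIs in mock.BEC and 345 in 2dpa.BEC (ratio 6.948, interval 2.358 to 33.86), and psmb12 had 3 and 341. psmb13a had no UMI in 0dpa.BEC and 18 in 1dpa.BEC, which is at least 1.749-fold higher against a floor of 3 UMIs over the group. All 5 immune beta genes rose from 0 to 1 dpa and again from 1 to 2 dpa. In the second step psmb13a still started from only 18 UMIs. psmb12, with more UMIs at 1 dpa, went from 24.44, 16.96 and 29.62 to 48.21, 56.68 and 50.68, with no overlap (log2 change 1.11, SE 0.255, edgeR quasi-likelihood adjusted p = 0.00016).

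psme1 and psme2, the activator genes that accompany the immune core in mammals, rose with them. Their sum in BEC-like cells was 108.4, 99.7 and 88.34 at 0 dpa, 249.0, 258.3 and 276.1 at 1 dpa and 390.5, 405.1 and 404.3 at 2 dpa. The libraries of these days did not overlap. The log2 change of psme1 was 1.398 (SE 0.262) from 0 to 1 dpa and 0.68 (SE 0.136) from 1 to 2 dpa, both called by edgeR's quasi-likelihood test (adjusted p = 2.8e-06 and 1.1e-05).

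The immune genes then fell. From 2 to 3 dpa 4 of the 5 immune beta genes were called lower in BEC-like cells, psmb9a by a log2 change of -1.85 (SE 0.401, edgeR quasi-likelihood adjusted p = 8.1e-05) and psmb8a by -1.51 (SE 0.392). psmb9a stood at 50.14, 58.65 and 49.07 at 2 dpa and at 16.72, 15.54 and 11.5 at 3 dpa. In hepatocyte-like cells 4 of 5 fell between 3 and 7 dpa, psmb8a from 24.5, 20.62 and 17.2 to 1.106, 1.306 and 7.624 (log2 change -2.49, SE 0.430, edgeR quasi-likelihood adjusted p = 5.7e-08). At 7 dpa psmb8a was seen as 9 UMIs over the 3 libraries.

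The share of immune UMIs within the 3 catalytic pairs is that of psmb8a, psmb9a and psmb10 over these plus psmb5, psmb6 and psmb7. Since Drop-seq counts tags at the 3′ end of transcripts, the share does not depend on gene length, but capture may differ between genes. In BEC-like cells it was 50.58% ± 5.841 in untreated fish, 21.06% ± 11.03 in mock, 9.759% ± 3.007 at 0 dpa and 16.42% ± 2.458 the day after. It reached 20.01% ± 0.5745 at 2 dpa, and 3dpa.BEC had 15.43% ± 1.58. Behind the similar pooled shares of mock and 2 dpa, the means of the psmb8a and psmb10 pairs differed in opposite directions, which the test could not establish. The share of psmb8a within its pair was 4.762% ± 8.248 in mock and 27.57% ± 2.57 at 2 dpa, and that of psmb10 was 37.37% ± 10.88 and 21.12% ± 2.858, without overlap in either pair (exact two-sided permutation p = 0.1 for both, the smallest possible, and 0.175 adjusted), though the mock shares rest on 16 and 31 UMIs. The opposite directions also depend on mock as the baseline. In untreated.BEC the share was 78.95% ± 19.2 for psmb8a and 42.89% ± 6.424 for psmb10, both above 2 dpa. The pooled mock value rests on 16 immune UMIs of 75, with libraries at 8.333% to 27.59%. The libraries of 0 and 1 dpa did not overlap, nor did those of 2 and 3 dpa, but with 3 against 3 libraries an exact two-sided permutation test cannot go below p = 0.1, and both had that value (0.175 after Benjamini-Hochberg adjustment over the shares compared). 3dpa.HC had 15.05% ± 0.0858, which did not differ from 3dpa.BEC beyond the spread (exact permutation p = 0.8), and 7dpa.HC had 11.03% ± 1.432. The 3dpa.HC and 3dpa.BEC sums came from the same 3 libraries, and the test did not pair them.

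**Figure D3:**
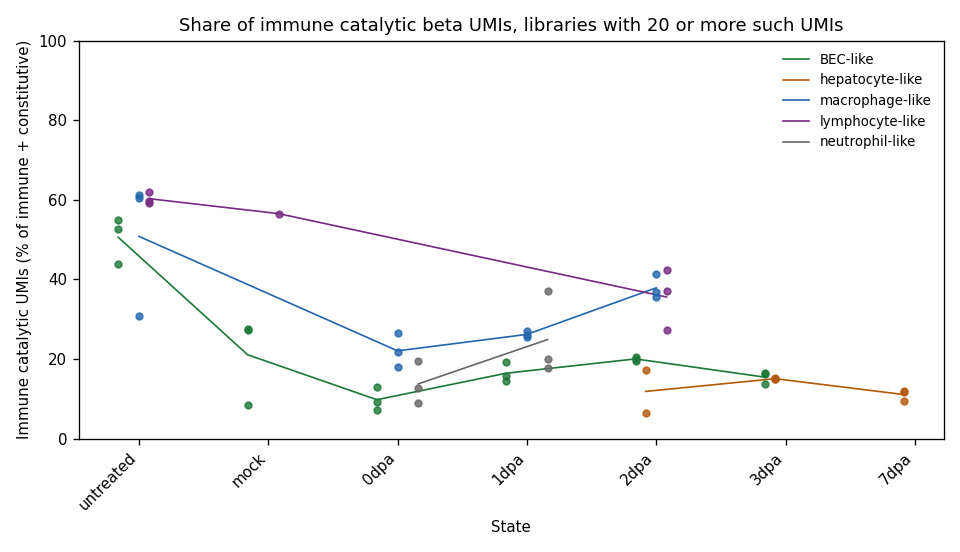
Percent of UMIs of the 3 catalytic pairs that came from the immune gene, against state, with 1 point for each library that had 20 or more such UMIs and lines joining the means. BEC-like cells of untreated fish stand at 43.96% to 55.0%, above all later BEC-like libraries, and macrophage-like cells at 2 dpa (35.61% to 41.26%) stand above BEC-like cells of that day (19.42% to 20.57%).

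Uninjured and mock BEC-like cells differed in constitutive genes and, among the immune genes, in psmb8a. Against untreated.BEC, 15 members were higher in mock.BEC, all constitutive, and 1 was lower, psmb8a, where 3.94% of all genes were called higher and 4.72% lower. psmc3, an ATPase gene, went from 9.722, 9.083 and 14.86 in untreated.BEC to 76.38, 84.86 and 80.35 in mock.BEC, without overlap (log2 change 2.82, SE 0.478, edgeR quasi-likelihood adjusted p = 6.6e-07). psmb8a went the other way, from 25.93, 43.14 and 29.73 to 0, 0 and 6.696, with 1 UMI against 49 (ratio 0.07835, interval 0.001944 to 0.4575). This 1 lower call is no more than the share over all genes. The 5 immune beta genes summed to 93.98, 113.5 and 110.4 in untreated.BEC and to 30.55, 59.4 and 60.26 in mock.BEC. The sum of psme1 and psme2 went the other way, from 93.98, 93.1 and 74.32 to 198.6, 101.8 and 107.1. The change of psmb8a from untreated.BEC to 2dpa.BEC was only 0.56 on the log2 scale (edgeR quasi-likelihood adjusted p = 0.061). Lymphocyte markers in the BEC-like sums were 140.6 in untreated and 122 in mock fish, and median UMIs per cell were 1284.5 to 1393 and 510 to 553, so that depth moved with this difference. Its part was not tested.

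In macrophage-like cells members rose already at 0 dpa. There 10 of 51 members were higher than in mock.Mac and psmd10 was lower, where 5.07% of all genes were called higher and 6.49% lower, and the median log2 change was 0.946 (all genes 0.0). The constitutive sum was 1168, 1104 and 1257 in mock.Mac and 2374, 2150 and 2408 in 0dpa.Mac, without overlap. 3 constitutive beta genes (psmb3, psmb4 and psmb7), psma4, psmc4, psmc6, psmd6 and psmd7 were called. psmd6 had 3 UMIs in mock.Mac and 32 in 0dpa.Mac (ratio 5.579, interval 1.745 to 28.48). This psmd6 call was lost without mock replicate 1, mock replicate 2 or 0 dpa replicate 1 (edgeR quasi-likelihood adjusted p = 0.17, 0.06 and 0.056), and the count of members was 6 without mock replicate 1. Neutrophil markers in the macrophage-like sums stood at 28.67 in mock and 768.4 at 0 dpa, and their part was not tested.

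From 0 to 1 dpa 22 members rose in macrophage-like cells and 2 fell (11.5% and 6.73% of all genes), and the constitutive sum reached 3676 ± 120.6. The calls lay in the core, with 8 of 9 alpha and 6 of 7 constitutive beta genes but 1 of 7 ATPase genes and 2 of 13 other cap genes. psmb10, the counterpart of psmb7, was the immune beta gene called, at 12.3, 21.71 and 8.136 at 0 dpa and at 49.79, 49.55 and 54.63 at 1 dpa (log2 change 1.78, SE 0.418, edgeR quasi-likelihood adjusted p = 0.00036). psma6l rose too, from 12.3, 0 and 12.2 to 33.57, 36.16 and 36.79, but not without 0 dpa replicate 2 (edgeR quasi-likelihood adjusted p = 0.066). psmd9, an assembly chaperone, was called with a log2 change of 1.75 and lost its call without 0 dpa replicate 1 or 3 or 1 dpa replicate 1 (edgeR quasi-likelihood adjusted p = 0.12, 0.2 and 0.078).

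Between 1 and 2 dpa 2 of the 5 immune beta genes and 1 of the 36 constitutive genes rose in macrophage-like cells. The constitutive sums were 3909, 3752 and 3759, beside 3689, 3549 and 3789 at 1 dpa. The immune beta sums were 256.4, 254.2 and 268.9, beside 137.1, 131.9 and 136.6, without overlap. In all 6 members rose and none fell (6.15% of all genes were called higher and 5.20% lower): psmb12, psmb8a, psme1, psme2, psma5 and psmd10. psmb12 went from 17.9, 18.08 and 15.61 to 70.25, 42.96 and 57.63 (log2 change 1.72, SE 0.331, edgeR quasi-likelihood adjusted p = 1.2e-05). This split turned with the scaling, since with TMM factors over all genes 2 members were higher and 13 lower, and with DESeq2 2 were higher and 9 lower, while the median of all genes moved from 0.073 to -0.388 and -0.232. Of all genes 251 were then called higher and 1495 lower with TMM, and 350 and 1201 with DESeq2. psmb8a lost its call without 1 dpa replicate 1 (edgeR quasi-likelihood adjusted p = 0.059) and without 2 dpa replicate 3 (0.39). From 2 to 3 dpa 8 members fell in macrophage-like cells and none rose (1.04% of all genes were called lower and 2.37% higher), while hepatocyte markers in these sums went from 139 to 7001, beside 9786 for their own markers at 3 dpa, and their part was not tested. psmd12 had 54 UMIs at 2 dpa and none at 3 dpa, at least 4.227-fold lower against a floor of 3 UMIs over the group.

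Whether the response differed between these types was tested directly. The change from mock to 0 dpa differed between BEC-like and macrophage-like cells for 2 members, psma4 and psme4b, both with the higher change in macrophages, where 2.50% of all genes were called in that direction and 1.09% in the other. The median difference in log2 change was -0.822 over the members and -0.208 over all genes. By edgeR's quasi-likelihood test 11 members had an unadjusted p under 0.05, 10 of them with the lower change in BEC-like cells. The share of all genes at that unadjusted p is not given here, so the 11 cannot be called particular to the members. Between BEC-like and lymphocyte-like cells the change from mock to 0 dpa differed for no member by edgeR's quasi-likelihood test (0.325% and 0.515% of all genes), with 1 at an unadjusted p under 0.05 (psmb7) and 0 by DESeq2. psma4, an alpha gene, was at 206.2, 280.0 and 241.1 in mock.BEC and at 184.6, 204.1 and 161.3 in 0dpa.BEC, all below mock. In macrophage-like cells it was at 81.48, 61.75 and 148.7 in mock and at 237.8, 235.7 and 195.3 at 0 dpa, all above mock. The difference in log2 change was -1.58 (SE 0.401, edgeR quasi-likelihood adjusted p = 0.0062). For the change from mock to 1 dpa psmd10 differed in one direction and psme4b in the other, beside 1.76% and 4.11% of all genes.

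3 members stood apart from the rest. psmd10, which encodes gankyrin, an assembly chaperone of the base, had its highest levels in lymphocyte-like and macrophage-like cells before injury. It stood at 636.3, 677.7 and 609.1 in untreated.Lym and at 366.3, 422.4 and 449.3 in untreated.Mac, above the 97.22, 109.0 and 99.8 of untreated.BEC, with no overlap between these types. In untreated.Neu psmd10 was at 68.23 to 77.94, on 25 cells in all and very few UMIs. In macrophage-like cells it went from 251.2, 347.3 and 263.6 in mock to 147.6, 124.1 and 158.7 at 0 dpa and 62.66, 81.03 and 79.71 at 1 dpa, while the constitutive sum was higher at each step. Both steps were called (log2 change -1.01, SE 0.244, and -0.93, SE 0.218, edgeR quasi-likelihood adjusted p = 0.00098 and 0.00034), but the first was lost without the 5% of cells with the most UMIs (-0.53, edgeR adjusted p = 0.34). It then rose again to 189.7, 207.7 and 230.5 at 2 dpa, a log2 change of 1.49 (SE 0.197, edgeR quasi-likelihood adjusted p = 9.6e-12).

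In lymphocyte-like cells psmd10 was at 489.5, 361.4 and 414.6 in mock and at 121.8, 139.6 and 50.85 at 1 dpa, with no overlap (log2 change -2.14, SE 0.392, edgeR quasi-likelihood adjusted p = 4.5e-06), although the 1 dpa level rests on 13 UMIs. BEC markers in these lymphocyte-like sums were 837.4 in mock and 2402 at 1 dpa, where they stood above the lymphocyte markers. The part of other cells' RNA in this fall and in the differences between types was not tested. The change of psmd10 from mock to 1 dpa differed from that in BEC-like cells, by 2.17 (SE 0.542) for lymphocytes and 1.97 (SE 0.394) for macrophages (edgeR quasi-likelihood adjusted p = 0.013 and 5.9e-05), and it was the 1 member called in either of these tests with BEC-like cells higher (0.291% of all genes were called in that direction for lymphocytes and 0.695% in the other). psmd10 was also the 1 member that rose in hepatocyte-like cells from 3 to 7 dpa, from 59.05, 69.05 and 63.15 to 141.6, 97.93 and 99.11 (log2 change 0.83, SE 0.171, edgeR quasi-likelihood adjusted p = 6.3e-06). With library size alone as the scaling the sign of that change turned (-0.22, edgeR quasi-likelihood adjusted p = 0.26), and the median of all genes was then -0.89. In BEC-like cells psmd10 rose from 1 to 2 dpa by 0.86 (SE 0.183) on the log2 scale.

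psme4b, a copy of the gene for the nuclear activator PA200 whose other copy psme4a was too low to test, was seen in macrophages at 0 dpa. It had no UMI in mock.Mac and 35 in 0dpa.Mac, at least 6.102-fold higher against a floor of 3 UMIs over the group. Its levels were 24.6, 68.24 and 28.48 at 0 dpa and 7.833, 9.375 and 13.38 at 1 dpa, without overlap (log2 change -2.03, SE 0.405, edgeR quasi-likelihood adjusted p = 1.7e-05, and 0.098 without 0 dpa replicate 2, the highest library). In untreated.Mac psme4b was at 18.47, 6.814 and 24.38, so that mock.Mac was at least 2.345-fold lower against the same floor, and the rise at 0 dpa depends on mock as the baseline. In neutrophil-like cells psme4b fell as well from 0 to 1 dpa, from 30 UMIs to 3 (ratio 0.1672, interval 0.03266 to 0.5377). The neutrophil call of psme4b was lost without any of the 0 dpa replicates (edgeR quasi-likelihood adjusted p = 0.087, 0.061 and 0.065 without replicate 1, 2 and 3) and without 1 dpa replicate 1 or 2 (0.17 and 0.24).

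psme3, the nuclear activator gene called at 0 dpa in BEC-like cells, was also called in macrophages, with 1 UMI in mock.Mac and 19 in 0dpa.Mac (ratio 9.938, interval 1.58 to 412.9). The psme3 call in macrophages was lost without mock replicate 1 or 3 or without 0 dpa replicate 1 or 2 (edgeR quasi-likelihood adjusted p = 0.2, 0.19, 0.13 and 0.17). In BEC-like cells psme3 reached 100.1, 108.3 and 111.4 at 1 dpa and 82.44, 76.88 and 83.26 at 2 dpa. The libraries of these days did not overlap, but the difference did not pass the test (log2 change -0.40, SE 0.183, edgeR quasi-likelihood adjusted p = 0.1).

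**Figure D4:**
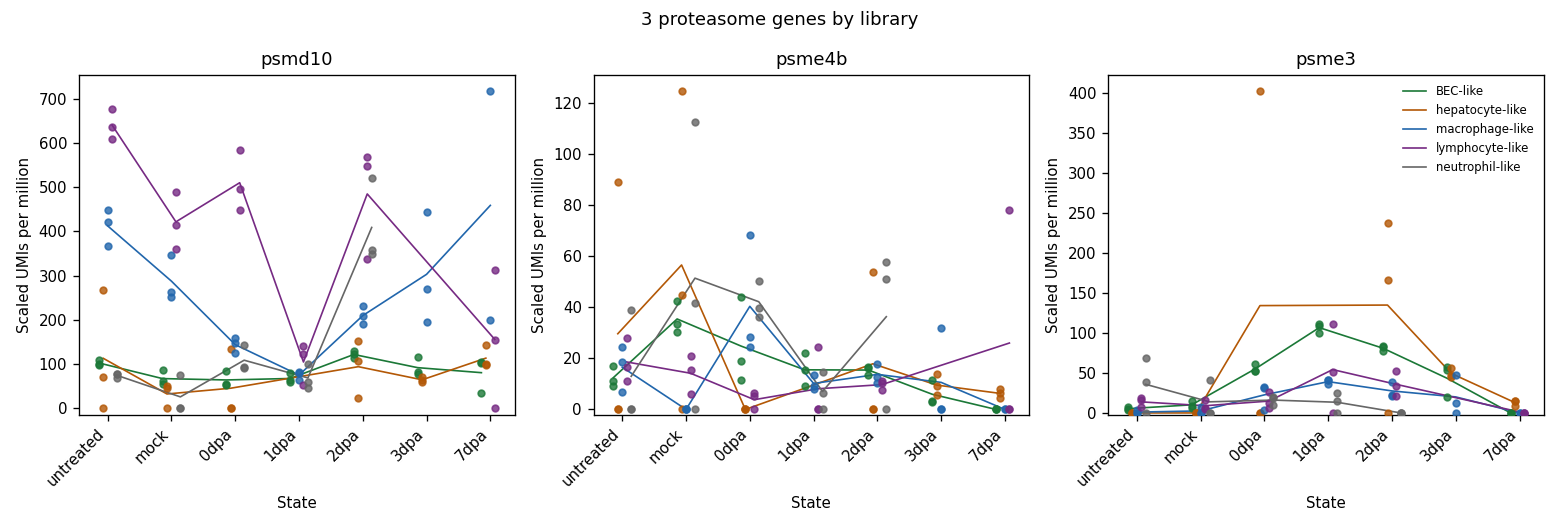
Scaled CPM (linear axes) of psmd10, psme4b and psme3 in each library against state, by cell type, with lines joining the means. psmd10 stands highest in lymphocyte-like cells (means of 641 in untreated and 421.9 in mock libraries), its means at 1 dpa lie between 66.72 and 104.1 in the 4 types with sums there, and the psme3 points above all others at 0 and 2 dpa belong to hepatocyte-like sums of 45 and 47 cells in all.

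Lymphocyte-like cells had no member called at 0 dpa against mock by edgeR's quasi-likelihood test, where 1.02% of all genes were called higher and 2.24% lower. At an unadjusted p under 0.05 there was 1 (psmf1), and DESeq2 called 0. At later times constitutive genes were higher, in few cells. At 1 dpa, in 82 cells, 14 members were higher than in mock.Lym and psmd10 was lower (4.16% and 4.14% of all genes), and at 2 dpa, in 214 cells, 28 were higher and none was lower (8.82% of all genes higher and 7.03% lower). psmb4, a constitutive beta gene, was at 10.42, 43.62 and 15.55 in mock.Lym, 316.6, 223.4 and 186.4 at 1 dpa and 137.0, 178.7 and 195.0 at 2 dpa, with mock below both (log2 change at 1 dpa 3.41, SE 0.510, edgeR quasi-likelihood adjusted p = 5.3e-09). With TMM factors over all genes 8 members were higher at 1 dpa and 2 lower, and with DESeq2 9 were higher and 2 lower. Of all genes 156 were then called higher and 882 lower with TMM, and 189 and 880 with DESeq2. The change from mock to 2 dpa differed between BEC-like and lymphocyte-like cells for no member by edgeR's quasi-likelihood test (0.639% and 1.94% of all genes). At an unadjusted p under 0.05 there were 2 members, psma4 and psmc3. DESeq2 called 2 members higher, beside 525 of 7369 genes called higher and 111 lower, so these 2 are no more than the share over all genes.

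Barcodes not called as cells changed over the same days. In barcodes not called as cells the constitutive genes stood at 669 to 747 CPM in mock, 3635 to 3744 at 1 dpa and 4815 to 5001 at 2 dpa, before any scaling. On that scale lymphocyte-like cells lay below these barcodes at 0 dpa (512.9 to 786.5 against 920 to 1143), in 2 of 3 libraries at 1 dpa and in each at 2 dpa. Those of the macrophage-like type lay below them at 2 dpa (4622 to 4689) and at 3 dpa (1750 to 2118 against 2930 to 3009) and above them at 0 and 1 dpa. At 7 dpa BEC-like sums (501.5 to 626.8) overlapped these barcodes (561 to 593), and hepatocyte-like sums lay just above them (613.3 to 654.4). BEC markers in the lymphocyte-like sums were 837.4 in mock and 2402 at 1 dpa, macrophage markers 463.5 and 1145, and the lymphocytes' own markers 2711 and 394.1. The part of free RNA and mixed droplets in the lymphocyte, macrophage and 7 dpa values was not tested, and fewer cells of a type cannot be told apart here from less RNA per cell. For BEC-like cells the count of members higher at 1 dpa than at 0 dpa was 44 when background counts were subtracted, and 47 for 2 dpa against mock. In macrophage-like cells it was 8 at 0 dpa and 21 at 1 dpa. The subtraction takes away, per gene, the 95th percentile of counts over the barcodes not called as cells. A gene seen in few of these barcodes loses nothing, and for such a gene the subtraction cannot show the part of free RNA. Depth rose along with the members, since the median UMIs per BEC-like cell were 510 to 553 in mock and 3423 to 4324.5 at 2 dpa.

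**Figure D5:**
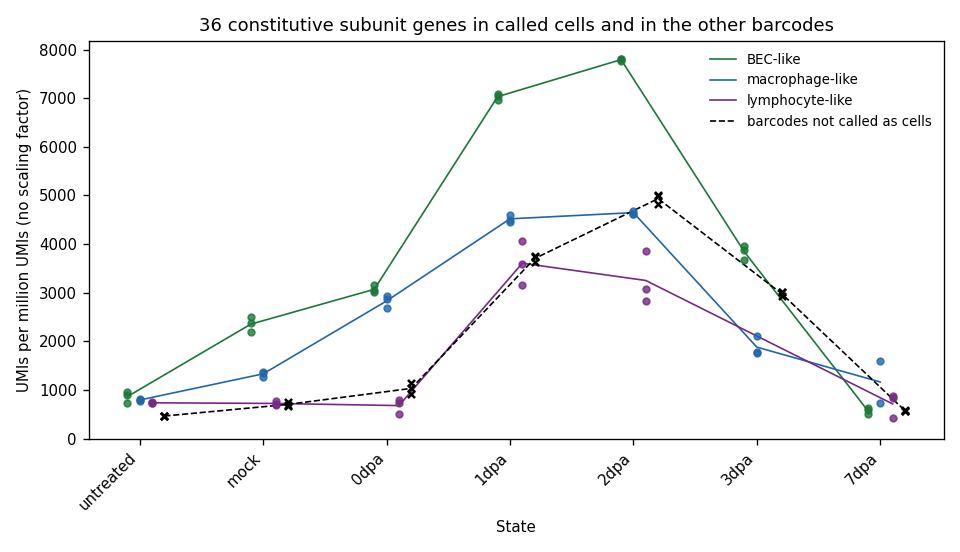
CPM of the 36 constitutive genes, without scaling factors (linear axis), in BEC-like, macrophage-like and lymphocyte-like sums (circles, 1 per library) and in the barcodes not called as cells (crosses, dashed line). BEC-like cells lie above the other barcodes from untreated to 3 dpa, macrophage-like cells lie below them at 2 dpa (4622 to 4689 against 4815 to 5001) and 3 dpa, and lymphocyte-like cells lie below them at 0 and 2 dpa and in 2 of 3 libraries at 1 dpa.

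3 of the 5 immune beta genes (psmb9a, psmb12 and psmb13a) were lower in lymphocyte-like cells of mock than of untreated fish. In all 6 members were lower in mock.Lym and 1 (psmc1a) higher, where 9.24% of all genes were called lower and 3.09% higher. The count of 6 is near that share, and the median log2 change was -0.349 over the members and -0.346 over all genes. Median UMIs per cell were 452 to 484 in mock.Lym and 1064 to 1186 in untreated.Lym, and the part of depth was not tested. psmb9a was at 64.05, 84.24 and 64.86 in untreated.Lym and at 10.42, 6.231 and 15.55 in mock.Lym, without overlap (log2 change -2.65, SE 0.525, edgeR quasi-likelihood adjusted p = 2.6e-05), and psmb13a had 68 UMIs against 2 (ratio 0.1016, interval 0.01206 to 0.3815). In macrophage-like cells 3 members (psmc1a, psmd2 and psmd4b) were higher in mock than in untreated libraries and psme4b was lower (2.37% and 3.26% of all genes). Immune UMIs made up 60.27% ± 1.503 of the 3 catalytic pairs in untreated.Lym.

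Neutrophil-like cells had a constitutive sum of 2507 ± 151.1 at 0 dpa and 1953 ± 269.5 at 1 dpa. The 0 dpa libraries, at 2359 to 2661, overlapped those of macrophage-like cells (2150 to 2408) and lay above those of BEC-like cells (2259 to 2345). From 0 to 1 dpa 2 members fell and none rose (2.16% of all genes were called lower and 1.59% higher), psme4b and psmc1a. psmc1a was at 131.3, 127.4 and 139.5 at 0 dpa and at 81.86, 35.85 and 37.18 at 1 dpa, without overlap (log2 change -1.32, SE 0.364, edgeR quasi-likelihood adjusted p = 0.015, but 0.15 without 1 dpa replicate 2 and 0.11 without replicate 3).

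Genes that work with the proteasome but lack the psm name were listed apart. Of 9 partners listed, 7 were tested, and 6 rose from mock to 2 dpa in BEC-like cells with a median log2 change of 1.714, where 18.6% of all genes were called higher and their median was -0.214. They included adrm1, a ubiquitin receptor of the cap (2.41, SE 0.425), and pomp, the core assembly chaperone (2.12, SE 0.247), both called by edgeR's quasi-likelihood test (adjusted p = 2.2e-07 and 1.5e-15). All 7 fell in hepatocyte-like cells from 3 to 7 dpa, adrm1 by a log2 change of -1.75 and pomp by -1.58, where 24.1% of all genes were called lower. Of the 5 tested genes of the Nrf1 route (nfe2l1a, nfe2l1b, mafgb, mafk and ddi2), which in mammals drives proteasome genes when the proteasome is inhibited, none was called from mock to 2 dpa (edgeR's quasi-likelihood test). From 0 to 1 dpa in BEC-like cells nfe2l1a was called higher and mafk lower by the same test. In that step 14.5% of all genes were called higher and 9.16% lower. From mock to 2 dpa 18.6% were called higher and 1968 of 8927 lower. A list of 5 genes is too short to set against these shares, and the part of the Nrf1 route was not tested.

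Among 18 tested genes of ubiquitin conjugation and unfolding, 9 rose and 3 fell from mock to 2 dpa in BEC-like cells (median 0.988), beside 18.6% of all genes called higher and 1968 of the 8927 called lower, so that the share that fell was no larger than over all genes. vcp, the segregase that extracts ubiquitinated proteins, rose by 1.79 (SE 0.263) and the E1 enzyme gene uba1 by 1.32 (SE 0.309), while the polyubiquitin genes ubb (-0.57) and ubc (-0.51) and the autophagy receptor gene sqstm1 (-0.72) fell. Of 19 tested genes of the class I and interferon list, 5 rose and 4 fell, close to the shares over all genes (18.6%, and 1968 of 8927), so the counts show nothing particular to this list. Those that rose were the lectin chaperones calr, calr3a, calr3b and canx and the disulfide isomerase pdia3, which serve protein folding in general, and those that fell were b2ml, mhc1uba, mhc1zba and mhc1zea, which encode class I chains and a beta-2-microglobulin-like protein. In macrophage-like cells from 1 to 2 dpa, when psmb12 and psmb8a were called higher, 5 genes of that list rose. They were b2m, irf1b, irf8, irf9 and stat1b (log2 change 2.49). Of the chaperone genes 3 fell, beside 6.15% of all genes called higher and 5.20% lower. The member calls of that step turned with the scaling, and for this list other scalings are not given here.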

How the data were processed

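Drop-seq libraries of sorted cells were analysed. According to the submitters' processing notes FastQC 0.11.2 and STAR 2.5.3 were used with GRCz11. The annotation release is not given in the sources used here. The authors deposited raw UMI counts per gene for 5000 barcodes of each library, without normalization. The 6 whole-liver libraries were not used here, nor was the gene row PSMD2 in capitals, which falls outside the naming rule.

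Barcodes with more UMIs than their library's mean were kept as cells (19963). Of the 19914 different barcode sequences among them, 40 occurred in more than 1 library. Cells were clustered with scanpy 1.11.5 and leidenalg 0.10.2 under Python 3.11.15 (2000 variable genes without proteasome genes, 30 components, 15 neighbours, resolution 2). A cluster took the name of its best marker list where that score was at least 1.4 times the next, a ratio set after seeing the clusters. No doublet caller was run, and the alternative without the 5% of cells with the most UMIs stands in for one. UMI counts were summed per library and cell type (at least 10 cells, 5 for neutrophils), which gave 94 sums in 33 states, and the replicate is the library. Sums of different cell types from the same library were not paired in the tests.

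Sums were fitted together with edgeR 4.0.16 (quasi-likelihood test, limma 3.58.1, R 4.3.3) over 8927 genes that reached 20 CPM and 10 UMIs in the pooled libraries of at least 1 state. Scaling factors (TMM) came from genes of at least 100 CPM on average, leaving out ribosomal, mitochondrial and proteasome genes. P-values were adjusted by Benjamini-Hochberg over all tested genes, with a threshold of 0.05. The SE of a fold change was derived from its test statistic. The script was tested on simulated data. Shares were compared by exact permutation tests (scipy 1.17.1). Intervals (95%) and the floor of 3 UMIs cover counting error only. Genes with near copies (psmc1a and psmc1b, psmd4a and psmd4b, psmd11a and psmd11b, psma6a, psma6b and psma6l, psme4a and psme4b) may share reads and are uncertain.

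Named genes were the catalytic pairs, the immune beta genes, psme1 to psme3 and, per comparison, up to 3 of the largest called rises and falls; others named in the text, such as psmd10 and psma4, were chosen after their values were seen. The members, gene lists and tests were chosen with earlier results of these data known. The comparisons of 3dpa.HC with 3dpa.BEC, of mock with untreated, of later lymphocyte and macrophage states and of responses from mock to 1 or 2 dpa were added after seeing the data. Alternatives were DESeq2 1.42.0, other scaling and filters, another baseline, subtraction of background counts, leaving out libraries and a replicate block.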

Additional observations from a re-analysis of the deposited data

Results flagged for a closer look

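Changes of 3 members differed between cell types by a test of the difference itself (edgeR's quasi-likelihood test, Benjamini-Hochberg adjusted). These calls are few of the 51 members tested and near the share of all genes called so (2.50% at 0 dpa, and 1.76% higher and 4.11% lower at 1 dpa, for BEC-like minus macrophage-like cells). For the change from mock to 0 dpa, however, the median difference between these 2 types was -0.822 over the members and -0.208 over all genes. By the same test 11 members had an unadjusted p under 0.05, 10 of them with the lower change in BEC-like cells. The share of all genes at that unadjusted p is not given here, so the 11 cannot be called particular to the members. The log2 change of psma4 from mock to 0 dpa was lower in BEC-like than in macrophage-like cells by a difference of -1.582 (SE 0.4013, adjusted p = 0.0062). For psme4b the differences were -7.699 from mock to 0 dpa (adjusted p = 0.002) and -6.328 from mock to 1 dpa (adjusted p = 0.027), fitted against macrophage-like mock sums without a UMI, so neither is a bound. For psmd10 the change from mock to 1 dpa was higher in BEC-like than in macrophage-like cells by 1.968 (adjusted p = 5.9e-05) and than in lymphocyte-like cells by 2.169 (adjusted p = 0.013). In the lymphocyte-like sums of 1 dpa BEC markers stood above lymphocyte markers.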

How the results depend on the processing

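Counts below are of members called. The numbers of all genes called moved with the scaling too, and for the untreated baseline they are not given here. For 0dpa.BEC above mock.BEC (3) the count was 27, with 3 lower, against untreated.BEC, 6 with TMM over all genes, 5 with library size alone, 8 with DESeq2, 1 without the low-count filter, 1 with background subtracted and 1 to 3 when a library was left out. For 2 against 1 dpa in BEC-like cells (18) it was 28 with TMM, 11 with background subtracted and 13 to 17 without a library. For 3 against 2 dpa (33 lower) it was 49 with TMM, library size alone or DESeq2, 12 with background subtracted and 19 to 32 without a library. For 7dpa.BEC below mock (1) it was 0 against untreated.BEC, without the filter, without the deepest 5% of cells and with background subtracted, 13 with TMM or library size alone, 14 with DESeq2, 6 in a fit of these cells alone and 0 to 2 without a library. For 0dpa.Mac (10) it was 32 against untreated.Mac, 6 without the filter, 4 without the deepest 5% of cells, 19 with DESeq2 and 6 to 9 without a library. The 2dpa.Mac rise (6) turned to 2 higher with 13 lower with TMM and 2 higher with 9 lower with DESeq2, and was 3 without the filter and 4 to 6 without a library. In neutrophils (2) it was 1 with library size alone, without the filter or in a fit of these cells alone, 0 without the deepest 5% or with background subtracted, and 0 to 1 without a library. Other counts without a library were 36 to 41 (1 against 0 dpa, BEC), 38 to 46 (2 dpa against mock, BEC), 43 to 47 (3dpa.HC against 2dpa.BEC), 43 to 45 (7dpa.HC), 15 to 22 (1 against 0 dpa, Mac) and 0 (0dpa.Lym).

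Among comparisons added after seeing the data, 3dpa.HC against 3dpa.BEC gave 38 with TMM and 32 with DESeq2, mock.Mac against untreated.Mac 5 with DESeq2, and 1dpa.Lym against mock 8 with TMM, 22 with library size alone and 9 with DESeq2. 3dpa.Mac against 2dpa.Mac gave 27 with TMM or DESeq2, 17 with library size alone and 4 without the filter. The BEC minus Lym difference gave 2 with TMM and 7 with DESeq2 at 1 dpa, and 2 with either at 2 dpa. Of all genes 430 of 8927 and 673 of 5119 were then called higher at 1 dpa. At 2 dpa these were 489 of 8927 and 525 of 7369. The member counts are near these shares. psmd10 in 7dpa.HC reversed to -0.22 with library size alone (edgeR adjusted p = 0.26), where the median of all genes was -0.89. Of 699 values for 59 single-gene results, 623 kept direction and call, 75 kept direction but lost the call and this 1 reversed. The cause of these shifts was not tested. Same-numbered libraries showed no shared deviation in BEC-like sums from mock to 3 dpa (r of -0.063 to 0.082 over 30 pairs). Counting noise at few UMIs also brings r near 0, so this cannot tell whether the numbers pair libraries. With the replicate block the count was 2 for 7dpa.BEC against mock, 41 for 1 against 0 dpa and 45 for 2 dpa against mock in BEC-like cells. It dropped to 14 for 2 against 1 dpa and to 25 for 3 against 2 dpa in these cells. Few UMIs lie behind 7dpa.BEC, 1dpa.Lym and the mock immune beta levels.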

Other observations

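psmc3ip, a recombination cofactor gene that shares only its name with the proteasome, had 1 UMI in mock.BEC and 166 in 2dpa.BEC (ratio 10.03, 95% counting interval 1.775 to 398.5), and 1 in 0dpa.Mac and 112 in 1dpa.Mac (ratio 17.92, interval 3.152 to 714.2). The GFP+ library of uninjured fish, which has no replicate, had a constitutive sum of 1263 scaled CPM in hepatocyte-like cells and 429.1 in its few BEC-like cells, which hepatocyte markers led. Before scaling these sums were 323.1 and 133.2 CPM.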
